A study of Mus musculus with 6 samples.

Results

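Catecholamine genes were followed through differentiation of CAD cells, a mouse neuronal line labelled as a catecholaminergic line of the central nervous system. The set holds 9 genes, found by their symbols in the authors' deposited table of 26436 genes: Th, Ddc and Dbh for synthesis, Gch1, Pts and Qdpr for the hydroxylase cofactor, and Cyb561, Slc18a1 and Slc18a2 for the storage vesicle. None of the 9 encodes an enzyme of catecholamine breakdown, and the breakdown enzymes are described as a separate list. There were 3 RNA sequencing libraries of undifferentiated cells, grown in DMEM/F12 medium that held 10% fetal bovine serum, and 3 libraries of cells left for 5 days in DMEM/F12 with a supplement of insulin, transferrin and selenium and no listed serum. All 6 come from 1 cell line, all media held penicillin and streptomycin, and neither group carries a transgene or drug named in the labels. Whether the 3 libraries of a group stem from separate cultures is not labelled. Each p-value thus rests on a spread that the DESeq2 model estimated from libraries whose differences may be technical. Loss of serum and gain of the supplement go together with differentiation and cannot be told apart. These are bulk samples, in which fewer cells with a transcript and less of it per cell cannot be told apart either.

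Catecholamines are made from tyrosine. Tyrosine hydroxylase (Th) adds a hydroxyl group with tetrahydrobiopterin as cofactor, aromatic amino acid decarboxylase (Ddc) turns the product into dopamine, and dopamine beta-hydroxylase (Dbh) turns dopamine into noradrenaline inside the storage vesicle. Dopamine enters the vesicle through a vesicular monoamine transporter (Slc18a1 or Slc18a2), and Dbh, a copper enzyme, draws electrons from ascorbate that the membrane protein Cyb561 keeps reduced. A dopaminergic cell lacks Dbh and a noradrenergic cell has it.

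The promoters shown are those of Dbh, which fell with differentiation, and of Th and Slc18a2, which did not pass the test in either direction. Windows of Gch1 and Pts, which did not pass it either, and of Ddc and Qdpr, which rose, are not printed. Each runs from 250 bases before to 50 bases after the RefSeq start of transcription (build GRCm38.p6), on the strand of the gene. Capitals mark the cAMP response element (TGACGTCA), its shorter core (TGACG), the E-box (CANNTG) and the homeodomain core (TAAT), on either strand, where N is any base. Each full cAMP response element also holds the shorter core on both strands.
Dbh, chr2:27165257-27165556, plus strand: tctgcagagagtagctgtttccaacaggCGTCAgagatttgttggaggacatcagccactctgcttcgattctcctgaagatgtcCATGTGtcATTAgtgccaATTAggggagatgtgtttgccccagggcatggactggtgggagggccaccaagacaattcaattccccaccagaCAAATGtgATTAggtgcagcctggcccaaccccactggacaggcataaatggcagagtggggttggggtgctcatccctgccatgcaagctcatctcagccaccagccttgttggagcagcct
Th, chr7:142899946-142900245, minus strand: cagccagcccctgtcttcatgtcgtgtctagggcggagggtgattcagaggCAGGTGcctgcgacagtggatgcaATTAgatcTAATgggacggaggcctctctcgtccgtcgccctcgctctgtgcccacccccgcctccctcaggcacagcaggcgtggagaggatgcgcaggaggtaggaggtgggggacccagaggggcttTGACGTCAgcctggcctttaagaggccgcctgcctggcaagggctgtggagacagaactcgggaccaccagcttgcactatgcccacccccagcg
Slc18a2, chr19:59260628-59260927, plus strand: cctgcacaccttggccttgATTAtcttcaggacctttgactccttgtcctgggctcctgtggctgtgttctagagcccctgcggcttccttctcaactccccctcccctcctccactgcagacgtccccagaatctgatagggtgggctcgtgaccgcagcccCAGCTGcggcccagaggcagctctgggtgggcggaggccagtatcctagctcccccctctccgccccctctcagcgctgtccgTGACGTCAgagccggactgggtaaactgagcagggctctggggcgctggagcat

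Counted from the start of transcription, with no position zero, the Dbh window holds TAAT on the opposite strand at -157, -147 and -65, E-boxes at -165 and -73 and the shorter core on the opposite strand at -222. The Th window holds a full cAMP response element from -45 to -38. It also holds an E-box at -199 and TAAT at -167 and, on the opposite strand, at -175. The Slc18a2 window holds a full element from -4 to 4, across the start, an E-box at -87 and TAAT on the opposite strand at -231. No full element was found in these 300 letters of Dbh, nor in the windows of Gch1 and Pts, which also did not pass the test. Windows of Ddc and Qdpr, which rose, hold no full element either. Those of Ddc hold TAAT, and that of Qdpr holds an E-box at -217. The Gch1 window holds the shorter core from -88 to -84, and that of Pts holds none of the marked motifs. Of 32851 RefSeq promoters of the same length, 1.79% hold the full element, 20.8% the shorter core, 58.0% TAAT and 72.3% an E-box. Of the 8 windows that matched 7 of the 9 genes, 2 hold the full element, 4 hold the shorter core, 5 hold TAAT and 4 hold an E-box. These matches describe letters and were not measured as binding sites. GENCODE models of Th and Dbh begin 31133 and 274 bases upstream of the RefSeq starts used here.

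The large change was in transcripts of Dbh, the gene for the noradrenaline step. In the authors' deposited table, Dbh fell by 5.35 ± 0.62 SE on the log2 scale (adjusted p = 3.63e-16), while 4 genes rose by smaller amounts, Cyb561, Ddc, Qdpr and Slc18a1, and Th, Gch1, Pts and Slc18a2 did not pass the test. Genes were called at the authors' adjusted p under 0.05, which is adjusted over 20285 genes. The p-values are from the Wald test of the DESeq2 model. By that rule 4 of the 9 were higher and 1 was lower, so that 5 of 9 (55.6%) were called. Over all genes tested 35.9% were called, 18.2% higher and 17.7% lower. All 9 have a mean normalized count above 50, and among the 14257 tested genes with at least that mean 46.4% were called, 22.0% higher and 24.4% lower. The share called among the 9 is therefore near that background. Tested against a 1.5-fold change in place of none, 2 of the 9, Dbh and Cyb561, were called, beside 4.23% of all genes tested. Their median log2 fold change was 0.34, beside 0.01 over all genes tested.

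**Figure D1:**
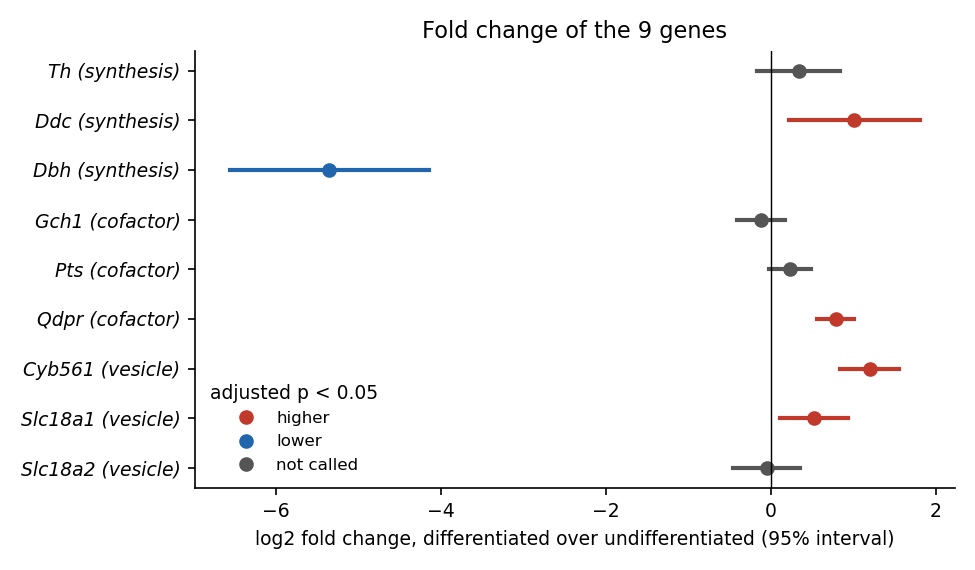
Log2 fold change, differentiated over undifferentiated, for the 9 genes, from the authors' deposited table (x axis), with bars for the 95% interval and colours for the call. Dbh stands at -5.35, and the other 8 genes lie between -0.11 and 1.20.

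The levels below are group means implied by the authors' mean normalized count and fold change, with both groups taken as equally large, since no single library was analysed here. They carry no SD of their own, and the error is that of the fold change. Levels of different genes are compared per kilobase of exon in GENCODE M21.

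Th, which encodes the rate-limiting enzyme of the pathway, had an implied mean of 80.6 normalized counts in undifferentiated cells and 102 in differentiated cells. The log2 fold change of Th in the authors' deposited table was 0.34 ± 0.25 SE (adjusted p = 0.322). The 95% interval reached from 0.896-fold to 1.79-fold, so a rise of that size or a small fall of Th could not be told from no change with these libraries. Per kilobase, Th stood at 34.1 and 43.1 normalized counts, and 33.0% of the 20184 tested genes with an exon length had a lower mean per kilobase. Transcripts of the gene that defines a catecholamine cell were thus counted in both groups, at a level under that of most genes tested. Th lies on chromosome 7 from 142892752 to 142931128, on the minus strand, with 12 exons in its longest coding transcript (GENCODE M21, GRCm38).

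Ddc encodes the decarboxylase that makes dopamine and, from another precursor, serotonin. Its implied mean was 39.5 normalized counts in undifferentiated cells and 79.9 in differentiated cells. Ddc in the authors' deposited table rose by 1.02 ± 0.41 SE on the log2 scale (adjusted p = 0.0371), a 2.02-fold difference with a 95% interval from 1.16-fold to 3.52-fold. The mean of Ddc in the authors' deposited table was the lowest of the 9, 59.7 normalized counts, and it was no longer called at an adjusted p under 0.01 or, at 0.86 on the log2 scale, once the trend of fold change over mean expression was taken out (adjusted p 0.0890). The gene has separate RefSeq starts, 7736 bases apart, whose use the gene-level values do not separate. Ddc lies on chromosome 11 from 11814101 to 11898144.

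Dbh, the enzyme that makes noradrenaline from dopamine, had an implied mean of 568.6 normalized counts in undifferentiated cells and 14.0 in differentiated cells. This is a 40.7-fold lower level, with a 95% interval from 17.6-fold to 94.3-fold. The lower end of that interval exceeds every other change in the set, the next in size being the 2.30-fold rise of Cyb561. Among the 20285 genes tested, Dbh had rank 5 from the lowest log2 fold change, and 0.133% of genes had a larger change in either direction. Dbh transcripts were still counted in differentiated cells, at an implied 5.18 normalized counts per kilobase. Dbh lies on chromosome 2 from 27165233 to 27183200, on the plus strand, with 12 exons in its longest coding transcript, and no other annotated gene overlaps it.

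By log2 fold change in the authors' deposited table, the genes nearest to Dbh, among those with a mean of at least 100, were Id2 (-5.88), Id3 (-8.17) and Galnt5 (-9.22) below it and Sctr (-4.60), Adamtsl2 (-4.03) and Myrip (-3.65) above it. Id2 and Id3 encode inhibitors of basic helix-loop-helix factors, Galnt5 a glycosyltransferase, Sctr the secretin receptor, Adamtsl2 a matrix protein and Myrip a linker between Rab27 vesicles and myosin. Likeness here is the nearness of 1 fold change per gene and says nothing of the order of events within the 5 days. Dbh, Galnt5 and Adamtsl2 lie on chromosome 2.

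**Figure D2:**
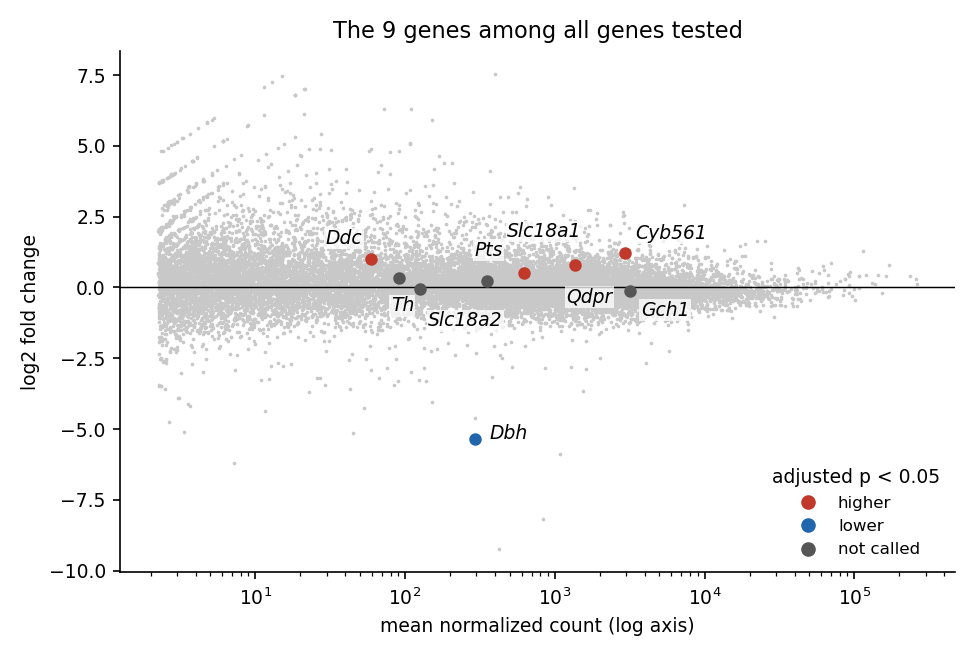
Log2 fold change (y axis) against mean normalized count (x axis, log scale) for the 20285 genes tested, in grey, with the 9 genes coloured by their call. Dbh lies far below the grey cloud at its mean of 291.3, and the other 8 lie within it.

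Genes of the cofactor were expressed more highly than Th and changed less than Dbh. Gch1 encodes GTP cyclohydrolase, the first and rate-limiting enzyme of tetrahydrobiopterin synthesis. Its implied mean was 3323 normalized counts in undifferentiated and 3069 in differentiated cells, and in the authors' deposited table its log2 fold change was -0.11 ± 0.15 SE (adjusted p = 0.600). The 95% interval of Gch1 ran from 0.757-fold to 1.13-fold and did not reach 1.5-fold in either direction. Pts encodes the synthase of the next step, and its implied means were 323 and 381 normalized counts. Pts in the authors' deposited table stood at 0.24 ± 0.13 SE (adjusted p = 0.153), with a 95% interval from 0.986-fold to 1.41-fold.

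Qdpr, the dihydropteridine reductase that regenerates the cofactor after each hydroxylation, rose. Its implied mean went from 999 to 1726 normalized counts, a 1.73-fold difference with a 95% interval from 1.47-fold to 2.02-fold. The log2 fold change of Qdpr in the authors' deposited table was 0.79 ± 0.12 SE (adjusted p = 4.47e-10). Per kilobase, Qdpr stood at 16.4 times the level of Th in undifferentiated cells and at 22.4 times in differentiated cells. Gch1 lies on chromosome 14 from 47153895 to 47189413, Pts on chromosome 9 from 50521617 to 50528724 and Qdpr on chromosome 5 from 45434021 to 45450236. An antisense model, Gm42413, shares 18.6% of the exon bases of Qdpr, and the strand setting of the authors' counting is not given in the sources used here.

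At the vesicle, Cyb561 and Slc18a1 rose while Slc18a2 did not pass the test. Cyb561, the cytochrome that brings electrons across the vesicle membrane to restore ascorbate for Dbh, had implied means of 1784 and 4106 normalized counts. Cyb561 in the authors' deposited table rose by 1.20 ± 0.18 SE on the log2 scale (adjusted p = 8.63e-10), a 2.30-fold difference with a 95% interval from 1.80-fold to 2.94-fold. Cyb561 rose where Dbh, an enzyme it serves, fell, and the intervals of both fold changes lie wholly on opposite sides of no change.

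Slc18a1 encodes the vesicular monoamine transporter known best from adrenal chromaffin cells, and Slc18a2 the one known best from brain neurons. Slc18a1 had implied means of 509 and 735 normalized counts and rose in the authors' deposited table by 0.53 ± 0.21 SE on the log2 scale (adjusted p = 0.0338), a 1.44-fold difference with a 95% interval from 1.09-fold to 1.91-fold. Slc18a1 was not called at an adjusted p under 0.01, a threshold that 26.9% of all genes tested pass. Slc18a2 had implied means of 128 and 124 normalized counts, and in the authors' deposited table its log2 fold change was -0.05 ± 0.21 SE (adjusted p = 0.897), with a 95% interval from 0.732-fold to 1.28-fold. Per kilobase, the level of Slc18a1 was 3.86 times that of Slc18a2 in undifferentiated cells and 5.75 times in differentiated cells. The fold changes of both transporters have overlapping intervals, and their difference was not tested. Cyb561 lies on chromosome 11 from 105933702 to 105953336, Slc18a1 on chromosome 8 from 69037711 to 69089235 and Slc18a2 on chromosome 19 from 59260896 to 59296012.

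The order of levels per kilobase changed at 1 gene above all. In undifferentiated cells it ran from Qdpr (559 implied normalized counts per kilobase), Gch1 (532) and Cyb561 (488) through Dbh (211), Slc18a1 (94.3), Pts (53.0), Th (34.1) and Slc18a2 (24.5) to Ddc (8.85). In differentiated cells it ran from Cyb561 (1124), Qdpr (965) and Gch1 (491) through Slc18a1 (136), Pts (62.4), Th (43.1), Slc18a2 (23.7) and Ddc (17.9) to Dbh (5.18). Dbh thus moved from rank 4 to rank 9, from 6.20 times the level of Th to a level that Th exceeded 8.32 times. Neighbours in either order were not tested against each other. With the length of the longest transcript in place of all exons, the level of Ddc was 2.21 times as high, of Gch1 1.78 times and of Slc18a1 1.73 times. Dbh kept ranks 4 and 9 with those lengths, while Gch1 ranked above Qdpr in undifferentiated cells and Ddc above Slc18a2 in differentiated cells.

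**Figure D3:**
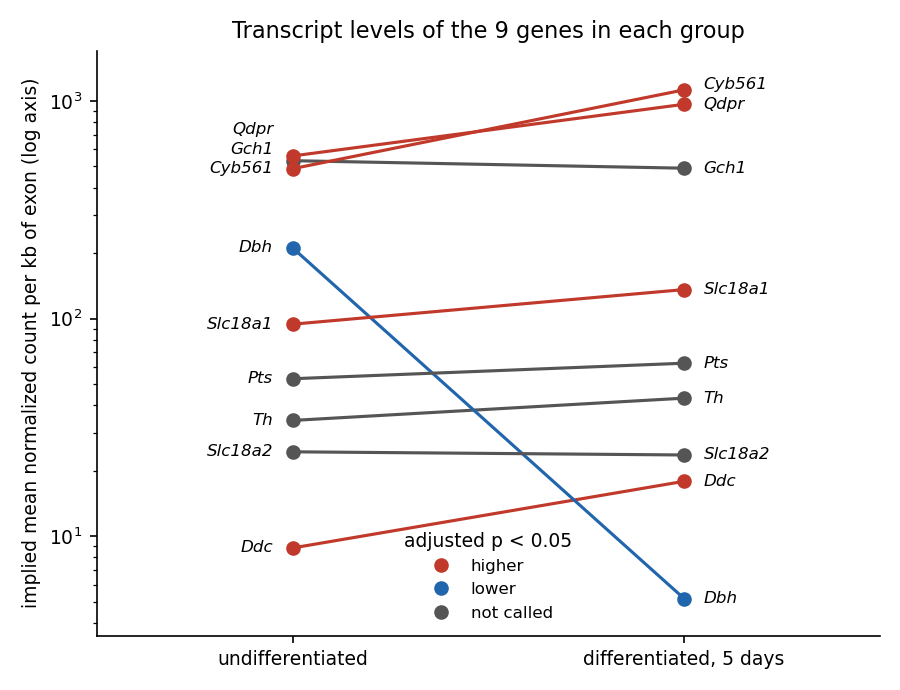
Implied mean normalized count per kilobase of exon (y axis, log scale) of the 9 genes in undifferentiated and differentiated cells, with lines joining the values of a gene and colours for the call. The Dbh line crosses 5 others on its way from 211 to 5.18.

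The fold changes differ in how precisely they were measured. Dbh in the authors' deposited table had a standard error of 0.62, 3.72 times the median of the 501 genes nearest in mean, and Cyb561 (1.75 times), Slc18a1 (1.56), Gch1 (1.42) and Ddc (1.36) also lay above that median. Th (1.02), Qdpr (1.00), Slc18a2 (0.935) and Pts (0.841) were close to it. The standard error can be turned into the spread between libraries that it implies. This assumes 3 libraries a group of about equal depth and the same spread in both groups. It is a value of the DESeq2 model and not a spread measured among the libraries of a gene. That spread was a coefficient of variation of 48.8% for Dbh and 31.7% for Ddc, and lay between 9.53% (Qdpr) and 18.9% (Th) for the other 7. Counting error, as opposed to other variation between libraries, made up 13.4% of the variance of the Dbh fold change and 26.3% of that of Slc18a2. Which library or group varied was not analysed here.

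**Figure D4:**
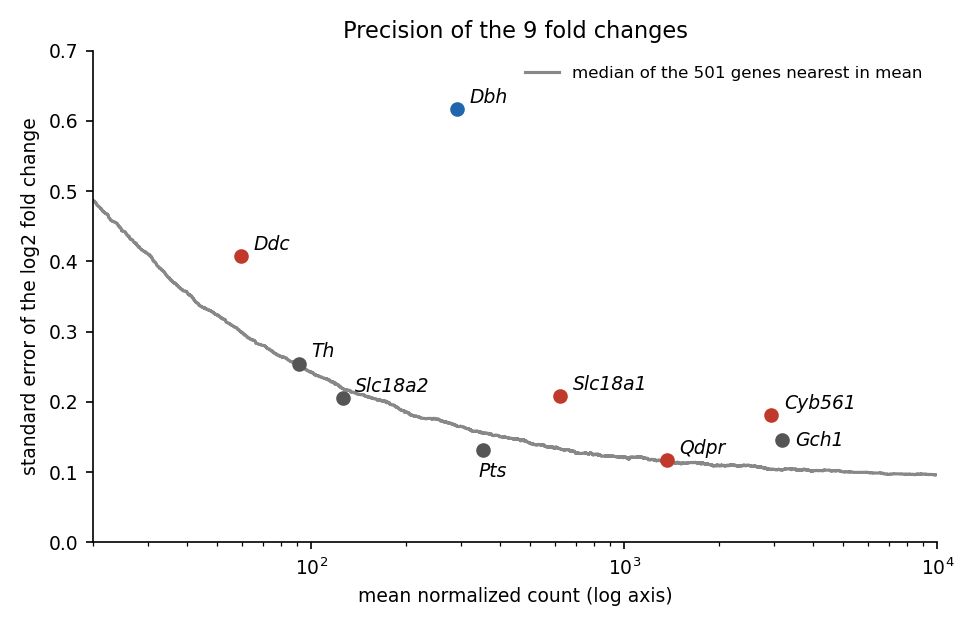
Standard error of the log2 fold change (y axis) against mean normalized count (x axis, log scale) for the 9 genes, coloured red for higher, blue for lower and grey for not called, with a line for the median of the 501 genes nearest in mean. Dbh, at 0.62, lies farthest above the line and Pts, at 0.13, lies under it.

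Other genes around the same chemistry showed smaller changes in both directions. Counts in this and the following lists stand beside 35.9% called over all genes tested, 18.2% higher and 17.7% lower. Among tested genes with a mean of at least 50, 46.4% were called, so such counts alone say little about a list. Enzymes of catecholamine breakdown were split, with 2 of 10 tested genes higher and 2 lower (median log2 fold change 0.11). Maoa, a monoamine oxidase gene, in the authors' deposited table fell by 0.43 ± 0.10 SE (adjusted p = 0.000153) and the aldose reductase gene Akr1b3 fell by 0.65 ± 0.12 SE. Per the authors' deposited table, the aldehyde dehydrogenase genes Aldh9a1 (0.52 ± 0.10 SE) and Aldh3a2 (0.37 ± 0.15 SE) rose, the latter with an adjusted p of 0.0497 that passed the threshold narrowly. Maob, the other monoamine oxidase gene, averaged 0.415 normalized counts without an adjusted p in the authors' deposited table. The plasma membrane transporters Slc6a2 and Slc6a3 and the adrenaline enzyme Pnmt have no value here. Per the authors' deposited table, Slc29a4, a monoamine transporter of the plasma membrane with low affinity, rose by 1.02 ± 0.17 SE on the log2 scale (adjusted p = 1.85e-08).

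Among 9 tested genes of tetrahydrobiopterin synthesis and recycling, 2 were higher and 2 lower, Gch1, Pts and Qdpr included (median 0.24). Per the authors' deposited table, Spr, the last enzyme of cofactor synthesis, fell by 0.51 ± 0.15 SE (adjusted p = 0.00310). Cbr1, a carbonyl reductase gene, rose in the authors' deposited table (0.28 ± 0.12 SE), and Gchfr, the feedback regulator of Gch1, was not called (0.24 ± 0.18 SE).

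The enzymes closest to Th in sequence make serotonin, and both fell. Tph1 in the authors' deposited table fell by 3.57 ± 0.49 SE on the log2 scale (adjusted p = 8.40e-12) and Tph2 fell by 0.76 ± 0.19 SE (adjusted p = 0.000476). Implied means of Tph1 were 79.3 and 6.67 normalized counts, and those of Tph2 were 184 and 109. Of the 6 tested hydroxylase and decarboxylase genes, Th and Ddc included, 1 was higher and 2 were lower (median 0.41). Of 8 tested relatives of Dbh and copper handling genes, Dbh included, 1 was higher and 3 were lower (median -0.20). Per the authors' deposited table, the copper chaperone gene Atox1 (-0.62 ± 0.15 SE) and the copper enzyme gene Sod1 (-0.37 ± 0.11 SE) fell and the copper pump gene Atp7b (1.19 ± 0.35 SE) rose, and Sod1 was no longer called once the mean expression trend was taken out (adjusted p 0.113). Of the 5 genes of the cytochrome b561 family, 1, Cyb561 itself, was higher and 0 were lower (median 0.33).

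**Figure D5:**
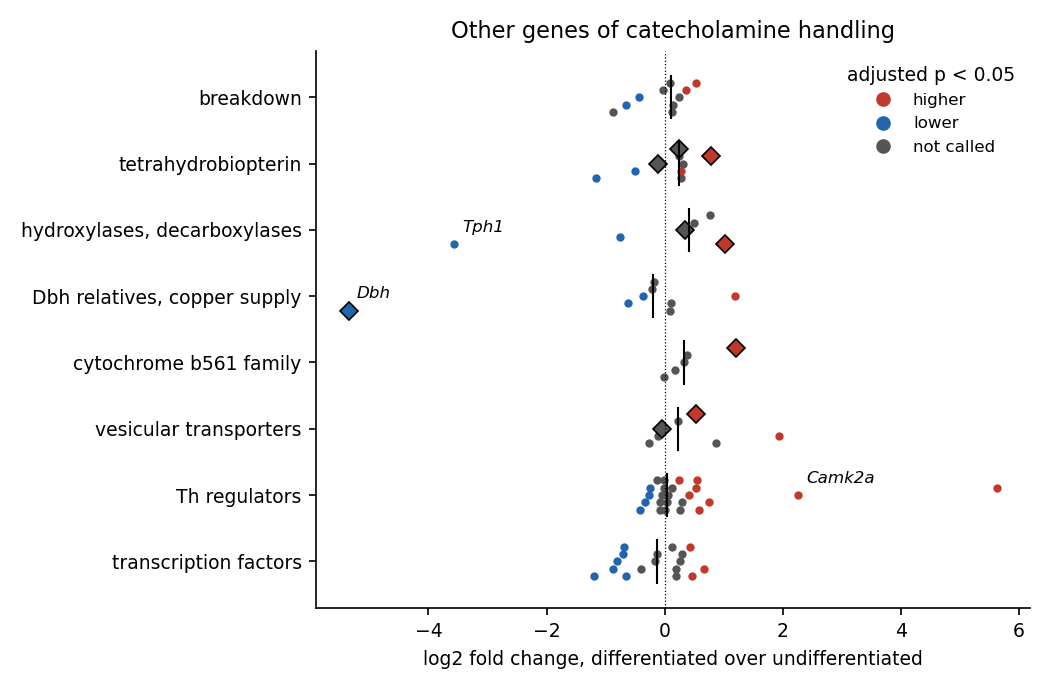
Log2 fold change (x axis) of the tested genes in 8 lists around catecholamine handling (y axis), from the authors' deposited table, with diamonds for the 9 genes, circles for others, colours for the call and a short line at each list's median. Dbh and Tph1 lie farthest to the left. Genes are named where the mean is at least 10 normalized counts and the change at least 2 on the log2 scale.

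Regulators of Th were mixed as well. Of 24 tested kinases, phosphatase subunits, binding proteins and cAMP response factors, 8 were higher and 4 lower (median 0.05). Camk2a in the authors' deposited table rose by 2.25 ± 0.17 SE on the log2 scale, Camk2b by 0.75 ± 0.30 SE, Mapk3 by 0.58 ± 0.18 SE and the phosphatase subunit gene Ppp2r2b by 0.55 ± 0.10 SE. These kinases are known to phosphorylate Th and the phosphatase to reverse it, which transcript levels do not show. Camk2b was no longer called once the expression trend was taken out (adjusted p 0.0750). Of 17 tested transcription factor genes of catecholamine neurons, 3 were higher and 6 lower (median -0.13). For both lists, the background among tested genes with a mean of at least 50 is 22.0% higher and 24.4% lower. Neither list was tested as a set. In the authors' deposited table, Phox2a, a homeodomain factor known to bind the Dbh promoter, fell by 0.87 ± 0.15 SE. Egr1 (-1.20), Hes1 (-0.81) and Isl1 (-0.71) also fell in the authors' deposited table. Hand2 in the authors' deposited table was not called at 0.19 ± 0.11 SE (adjusted p = 0.156), but passed as higher once the expression trend was taken out (adjusted p 0.00827).

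The labelled cell type was checked against fixed markers. Of 9 markers of catecholaminergic neurons, 7 were tested, of which 2 were higher and 2 lower, and Slc6a2 and Slc6a3 have no value here. Per kilobase, the transcription factor genes Hand2 (6847 mean normalized counts) and Phox2a (3717) stood far above Th (38.6) and Ddc (13.4). Of 9 tested general neuronal markers, 5 were higher and 0 lower, beside 22.0% higher and 24.4% lower among tested genes with a mean of at least 50. The summed implied mean of the catecholaminergic list was 27968 normalized counts in undifferentiated and 26002 in differentiated cells, most of it from Hand2 (15023 and 17171) and Phox2a (9773 and 5354). Markers of other neuron types were present, with sums in undifferentiated and differentiated cells of 595 and 549 for 2 cholinergic, 405 and 294 for 4 serotonergic, 167 and 198 for 2 GABAergic and 20.9 and 74.7 for 3 glutamatergic markers. Single genes made up almost all of 3 of these sums, Slc18a3 (589 and 541) of the cholinergic, Slc32a1 (161 and 190) of the GABAergic and Slc17a7 (19.3 and 74.1) of the glutamatergic. Slc5a7, Lhx8 and Gad1 of these lists have no value here. By mean per kilobase, Slc18a3 (234 normalized counts), Fev (97.6) and Tph2 (50.9) stood above Th. Tph1 (6.96), Chat (1.54) and Slc6a4 (0.452) stood below Ddc. For markers of cells other than neurons, the sums of both groups were 7.42 and 13.0 for 3 astrocyte markers, 79.6 and 115 for 4 oligodendrocyte markers, 127 and 54.2 for 3 microglia markers, almost all of it Tmem119, and 56.5 and 97.3 for 4 fibroblast markers. In the authors' deposited table, Csf1r and Aif1 of microglia and Sox10 of oligodendrocytes had means of at most 1.32 normalized counts. The part of these markers in the results above was not tested. The authors' deposited pathway sheet lists dopaminergic synapse, a set of 119 genes, among sets that were higher, with a mean set statistic of 1.54 and a q-value of 0.0207. That set spans receptors and signalling as well as the synthesis genes described here. Tyrosine metabolism, folate biosynthesis and Parkinson disease were also looked up by name and are not listed on that sheet.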

How the data were processed

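The 6 libraries were stranded and sequenced as single-end reads of 50 bp, per the labels' protocols. The submitters' processing notes name the build GRCm38.p6 and, as tools, DESeq2, STAR 2.5.1a, Trimmomatic 0.36 and FastQC 0.11.5. Not given in the sources used here are the program that counted reads, its use of strand and the gene models it counted on. The authors' deposited table holds 1 signal per gene, the mean normalized count, together with a log2 fold change and its log2 standard error, a Wald score and p-values. Fold changes are read as differentiated over undifferentiated because the comparison is so named. The score equals the fold change over its standard error (largest difference 1.24e-13), and the Benjamini-Hochberg method applied to the 20285 genes with an adjusted p returns that value (largest difference 1.44e-15). The other 6151 genes have a mean of at most 2.25. The deposited pathway sheet stacks other units, of which the q-value, size and mean statistic of 1 set are quoted.

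No test was refitted, since single libraries were not analysed here. The planned count model, its normalizations and the leaving out of libraries were therefore not run. The depth of single libraries is unknown here, and the mean normalized counts sum to 38846803. Each 95% interval spans 1.96 standard errors to either side of the fold change. Implied group means take 3 libraries a group and the mean as covering these 6 alone, an assumption that no source states. Coordinates and exon lengths come from GENCODE M21 (GRCm38), in which 26276 of the gene IDs were found. Promoters are from RefSeq (GRCm38.p6), which had windows for 7 of the 9 genes and none for Cyb561 and Slc18a1.

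The members and lists were chosen with earlier results of these data known. Named genes are all 9 members, up to 4 called genes a list with a mean of at least 10 and the largest change, fixed genes of breakdown, uptake, cofactor and transcription, and the 3 genes on either side of Dbh. Some genes that this rule names are not reported here. Alternatives changed the family of the adjustment, the threshold, the null fold change, the centring and the trend over mean expression. The background above a mean of 50 was added after the data were seen. Scripts used Python 3.11.15, pandas 2.3.3 and SciPy 1.17.1 and were tested on simulated data.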

Additional observations from a re-analysis of the deposited data

How the results depend on the processing

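No paired analysis was possible because single-library values were not analysed here. For the same reason the count model, its other normalization and filter, and the leaving out of single libraries were not run. The 9 fold changes kept their direction under every alternative in which they were tested, and 55 of 61 values kept their side of the threshold. At an adjusted p under 0.01, Ddc (1.02) and Slc18a1 (0.53) were no longer called, which left 3 of the 9, beside 26.9% of all genes tested. Tested against a 1.5-fold change, Ddc, Qdpr (0.79) and Slc18a1 were no longer called, which left 2, Dbh and Cyb561, beside 858 genes (4.23%) over the whole table. With the mean expression trend removed, Ddc (0.86) was no longer called. Adjusted over every gene with a p-value, Aldh3a2 and Cbr1 were no longer called. Tested against a 1.5-fold change, 0 genes were called in the breakdown, uptake and transcription factor lists, 1 in each of the cofactor, hydroxylase, Dbh relative and vesicular transporter lists, and 2 among Th regulators. Adjusted over genes with a mean of at least 100, 1 was called in the hydroxylase and in the vesicular transporter lists and 0 among the receptors. Tph1 (mean 43.0 normalized counts), Slc17a7 (46.7), Drd1 (54.7) and Ddc (59.7) lie under that mean and were left out there. These lower counts therefore do not retest their calls. At an adjusted p under 0.01, 1 vesicular transporter was called. Per kilobase of the longest transcript, mean levels were 46.8 for Th, 29.6 for Ddc, 911.0 for Gch1, 83.6 for Pts, 987 for Qdpr, 1075 for Cyb561, 199.7 for Slc18a1 and 28.6 for Slc18a2, each higher than with all exons because the length is shorter. Th and Ddc lie under a mean of 100 and have no value where the adjustment covers genes above it. Centring raised every fold change by 0.03.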

Other observations

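The vesicular transporters and receptors of other transmitters gave values outside the catecholamine pathway. The authors' deposited table has Slc17a7, a vesicular glutamate transporter gene, higher by 1.94 ± 0.34 SE on the log2 scale (adjusted p = 2.48e-07). Implied means of Slc17a7 were 19.3 and 74.1 normalized counts before and after differentiation. Slc18a3, the vesicular acetylcholine transporter gene, was not called, with -0.12 ± 0.13 SE on that scale in the authors' deposited table and implied means of 589 and 541 normalized counts. The level of Slc18a3 per kilobase, 234 mean normalized counts, was above that of Slc18a2, at 24.1. Chat, the enzyme gene of acetylcholine synthesis, whose first intron holds Slc18a3, averaged only 7.23 normalized counts in the authors' deposited table. Slc32a1, which serves GABA and glycine, was not called either (0.23 ± 0.35 SE in the authors' deposited table).

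Of 5 tested dopamine and adrenergic receptor genes, 1 was called higher and 0 lower, beside 18.2% higher and 17.7% lower over all genes tested. That gene was Drd1, which the authors' deposited table has higher by 2.07 ± 0.35 SE on the log2 scale (adjusted p = 3.70e-08). Implied means of Drd1 were 21.0 and 88.4 normalized counts. Adra2b, with the highest mean of the 5, stood at 0.86 ± 0.46 SE in the authors' deposited table and was not called (adjusted p = 0.139).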
